A study of Rattus norvegicus with 11 samples.

Results

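The ileum of rats with severe acute pancreatitis (SAP) that had been given JZL184 was compared with the ileum of control rats. Membership followed the labels: 7 of the 11 libraries of the series were used, 4 of the JZL184 group and 3 of the control group, and the libraries of SAP rats without the drug were not analysed here. Pancreatitis had been set off in male Sprague-Dawley rats aged 6 to 8 weeks by pumping 3% sodium taurocholate backwards into the pancreatic duct. At 24 h after surgery the JZL184 rats received 10 mg/kg of the drug intraperitoneally, in saline, ethanol and Tween-80, and the controls received the vehicle alone, before all rats were killed a further 24 h later. The treatment label of the controls names a control plasmid where the protocol describes vehicle, and whether control rats went through sham surgery is not given in the sources used here. Because the JZL184 rats differed from the controls both in having pancreatitis and in receiving JZL184, the contributions of disease and drug cannot be told apart in this comparison.

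JZL184 blocks monoacylglycerol lipase (MAGL, gene Mgll), the enzyme that breaks down most of the endocannabinoid 2-arachidonoylglycerol to arachidonic acid. Acute pancreatitis releases cytokines and digestive enzymes into the circulation, and the gut wall is one of the organs injured at a distance. The ileum is the last stretch of small intestine, where bile acids are taken back up, where Paneth cells secrete defensins and where many lymphocytes and mast cells reside in the mucosa.

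RNA of whole ileal tissue was sequenced as poly(A)-selected stranded libraries, and between 26341299 and 30887028 uniquely aligned reads per library were counted on genes. Levels are given as FPKM, fragments scaled to gene length and to reads sequenced, which can be compared between genes. Control libraries 1 and 2 were nearly the same: over genes with 20 or more reads, their chi-square per gene was 2.81, against 77.5 to 406 for every other pair of libraries within a group. Their reads were therefore summed and their FPKM averaged to count as 1 sample, which left n = 2 control samples against n = 4 JZL184 samples. The labels do not say whether the libraries of a group were separate animals, so that p-values measure the spread between these samples.

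The tissue label held in part. Epcam, a marker of epithelium, lay between 2802 and 3814 FPKM in all 7 libraries, but the summed FPKM of 16 epithelial markers was 20561 to 25464 in the controls and 10977 to 13897 in JZL184. Other cells were present too, with the muscle gene Des at 132 to 700 FPKM and the B cell gene Cd79a at 33.5 to 62.7 FPKM, where the cell label names epithelial cells alone. The pancreatic elastase gene Cela2a was at 0 to 0.11 FPKM and the liver gene Alb at 0.02 to 0.30 FPKM. These 2 genes do not stand for their lists. The summed FPKM of 16 exocrine pancreas genes was 1120 to 1191 in the controls and 140 to 809 in JZL184. That of 13 liver genes was 44.5 to 48.9 in the controls and 21.2 to 80.4 in JZL184. JZL184 libraries 1 and 3 stood apart in genes that mark position along the gut, which were chosen after their values were seen. Fabp6, the ileal bile acid-binding protein, had an FPKM of 21769, 21819 and 20506 in control libraries 1 to 3 and of 410, 9000, 79.9 and 6883 in JZL184 libraries 1 to 4. JZL184 library 1 had 44.5 FPKM of the lactase gene Lct and 7.73 of Gata4, whose product patterns the upper small intestine, where the controls had at most 0.33 and 0.17. In JZL184 library 3 there were 478 FPKM of Car1, a carbonic anhydrase abundant in colon, and 4.49 FPKM of the posterior gene Hoxd10, against at most 0.31 and 0.03 in the controls, while its Paneth cell gene Defa24 was at 54.7 and its lectin gene Reg3b at 47.7, both below all other libraries. Car1 also reached 24.5 FPKM in JZL184 library 2 and Lct 3.51 in JZL184 library 4. The part of these differences in the results was not tested, and the main counts and those of most lists are therefore also given for JZL184 libraries 2 and 4 alone, a choice made after the data were seen.

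**Figure D1:**
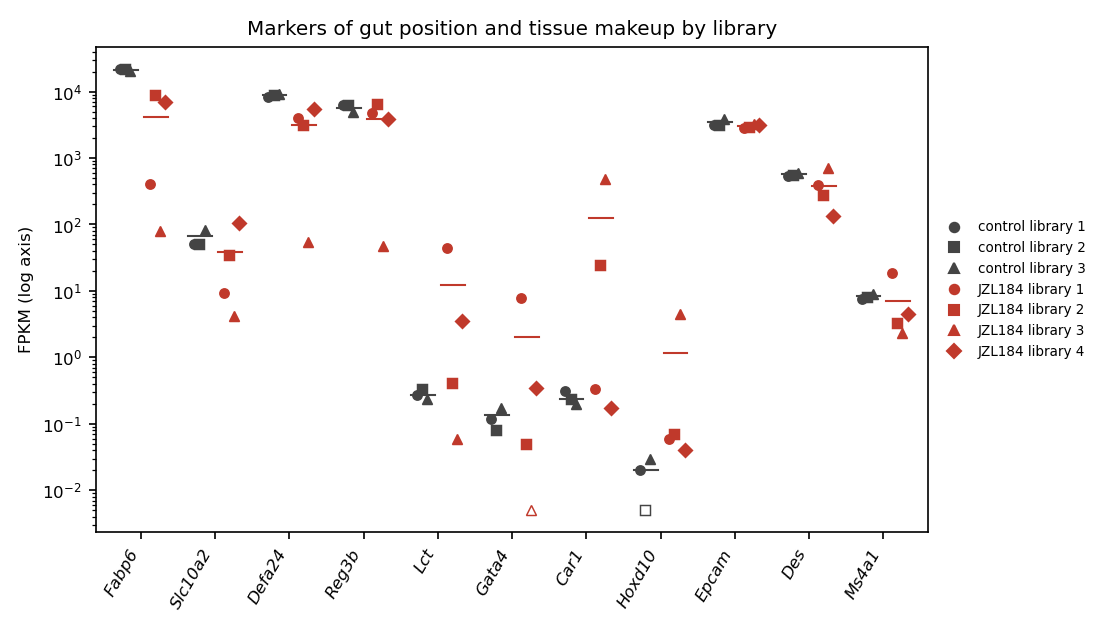
FPKM (log axis) of genes that mark gut position and tissue makeup in 3 control libraries (grey) and 4 JZL184 libraries (red). Bars are group means, with control libraries 1 and 2 averaged first, and open symbols at the bottom are values of 0. JZL184 libraries 1 and 3 have Fabp6 at 410 and 79.9, against at least 6883 elsewhere, and hold the highest Lct (44.5) and the highest Car1 (478).

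Of 15916 genes tested with edgeR's quasi-likelihood test, 343 were called (adjusted p below 0.05 and more than 2-fold higher or lower), which is 2.16% of those tested. They comprised 162 genes higher (1.02%) and 181 lower (1.14%) in JZL184, and in all 343 no JZL184 sample overlapped a control in normalized counts, as was the case for 38.3% of all genes tested (18.9% with JZL184 above the controls and 19.3% below). The log2 fold changes of the called genes reached from -7.22 (Defa11) to 9.25 (Csf3), with a median of 2.80 among those higher and of -2.47 among those lower. Unadjusted p was below 0.05 for 4178 genes (26.3%), 2195 higher (13.8%) and 1983 lower (12.5%). List counts below are of the members with enough reads for a test. They are to be read beside the shares of all genes given in this paragraph and the next. With JZL184 libraries 2 and 4 alone, a fit of 2 against 2 samples, 2967 genes were called (19.4%), 1375 higher (8.98%) and 1592 lower (10.4%). Among them were 340 of the 343, all with the same sign, and the other 3 had too few reads for a test there. Since no samples of the 2 groups overlapped in the 343 genes, a fit on fewer of the same libraries could hardly change their sign.

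The number of called genes depended strongly on single libraries. It was 1867 without JZL184 library 1 and 860 without library 3, but 25 without library 2 and 78 without library 4. Only Scd was called without control library 3 (2974 genes had an unadjusted p below 0.05), and 0 genes without control libraries 1 and 2 (1404 genes, smallest adjusted p 0.0843), since then 1 control sample remained. DESeq2 on the same samples called 1899 of 17587 genes (10.8%), 1021 higher and 878 lower, and 342 of the 1899 were among the 343. Genes said here to have risen or fallen passed the test over all 6 samples.

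**Figure D2:**
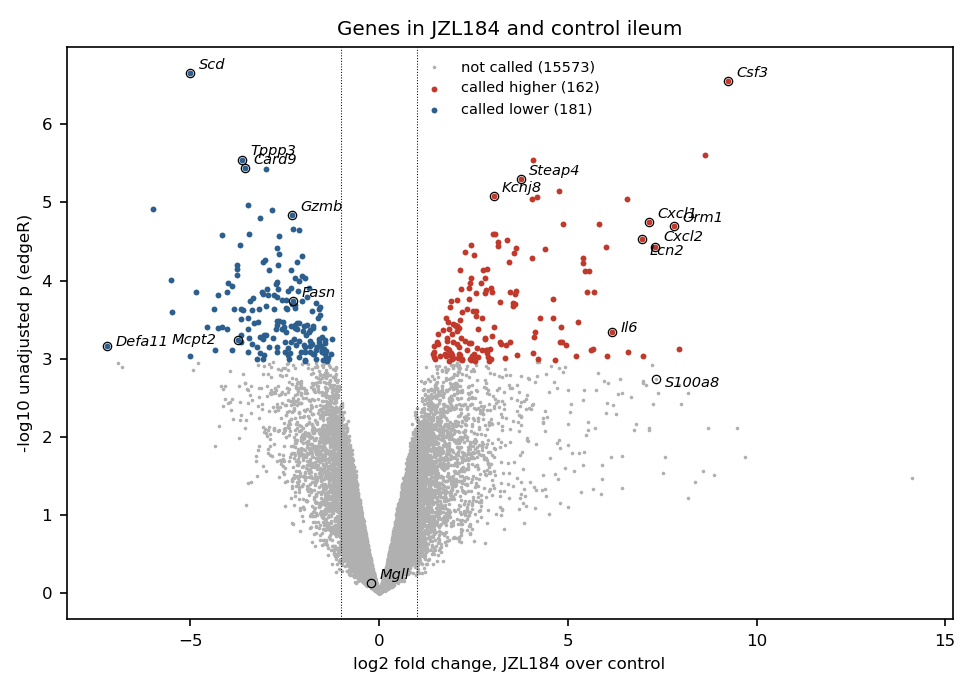
Log2 fold change of JZL184 over control against -log10 of the unadjusted p of edgeR for 15916 genes, with the 162 genes called higher in red, the 181 called lower in blue and some named genes circled. Csf3 (9.25) and Scd (-5.00) stand highest on the p axis, and Mgll lies near 0.

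Several genes for signals that call in neutrophils and monocytes rose. Csf3, on chromosome 10, which encodes the granulocyte colony-stimulating factor, was at 0.01, 0.00 and 0.01 FPKM in the controls and at 4.62, 6.82, 7.76 and 4.35 in the JZL184 libraries. It had 2 reads in all controls together and 1962 in the JZL184 libraries, a ratio of 752 per read sequenced with an exact 95% interval of 208 to 6212 that covers counting error only (edgeR log2 fold change 9.25, standard error (SE) 0.64, adjusted p = 0.00224). No JZL184 library came near a control.

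Cxcl1, on chromosome 14, whose product binds the neutrophil receptor CXCR2, had an FPKM of 0.63, 0.87 and 4.15 in the controls and of 218, 339, 388 and 411 in JZL184. The log2 fold change was 7.14 (SE 0.83, adjusted p = 0.0144 with edgeR). Its neighbours in the same chemokine cluster rose as well: Cxcl2 by 7.32 on the log2 scale (adjusted p = 0.0156), from 0.15 ± 0.19 (SD, n = 2) to 20.6 ± 6.00 FPKM (SD, n = 4), Cxcl3 by 4.59 and Cxcl6 by 4.41. The B cell chemokine Cxcl13 rose by 1.77 (adjusted p = 0.0476). Of 24 CXC chemokines and colony-stimulating factors tested, 6 rose and 0 fell, with a median log2 fold change of 1.60, where the median over all genes was 0.08. With JZL184 libraries 2 and 4 alone, 12 were higher and 2 lower.

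Among the CC chemokines, 4 of 25 rose and 1 fell (8 and 3 with libraries 2 and 4 alone). Ccl2, which attracts monocytes, was at 2.65, 3.15 and 4.84 FPKM in the controls and at 50.8, 47.4, 70.9 and 89.7 in JZL184 (log2 fold change 4.04, SE 0.43, adjusted p = 0.0112). Ccl7, which shares a receptor with it, rose by 4.04, Ccl3 by 5.83 and Ccl4 by 2.83. Ccr10, the receptor that guides IgA plasma cells to mucosae, fell from 0.41 ± 0.15 (SD, n = 2) to 0.04 ± 0.005 FPKM (SD, n = 4), a log2 fold change of -3.31 (adjusted p = 0.0351).

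Stretches of about 30 bases before the start are shown for 7 of the inflammatory genes called higher, because a motif found in them was more frequent among the genes called higher than among all promoters. It is GGGANNTTC, a form of the site that NF-kB binds, searched on both strands in the window from 250 bases before to 50 bases after each gene's start. Capitals mark the match. Sequences run 5′ to 3′ on the strand of the gene and come from RefSeq, assembly GRCr8.
Cxcl1, chr14:17479387-17479415, minus strand: cctgtgctccGGGAATTTCcctggcctgg
Cxcl6, chr14:17596487-17596515, minus strand: tccaaggcccGGGAATTTCcccagcatct
Ccl7, chr10:67514027-67514055, plus strand: cattccaaagGAAGATCCCgccctaactg
Il6, chr4:5894625-5894653, minus strand: tatcaaatgtGGGATTTTCccatgagtct
Lcn2, chr3:36082003-36082030, minus strand: gggctctggGAATGTCCCttcagctccc
Tnfaip3, chr1:15544027-15544055, minus strand: cacgtgactgGAAAGTCCCtcggaaatcc
Steap4, chr4:27054928-27054956, minus strand: aagggttccgGAAAATCCCtttaaaaccc
In Cxcl1 and Cxcl6 the match GGGAATTTC begins 84 and 88 bases before the start, and in Il6 the match GGGATTTTC begins 68 bases before. Ccl7, Lcn2, Tnfaip3 and Steap4 carry the motif on the opposite strand, so that the capitals show its reverse complement. A promoter was found by symbol for 122 of the 162 genes called higher and 118 of the 181 called lower. The motif stood in 12 of the 122 (9.84%) and in 2 of the 118 (1.69%), against 3.93% of all 27457 promoters and 3.91% of those of genes tested. It was 1 of 15 motifs searched after the called genes were known. Of the others, the metal-response core TGCGCNC was in 17.2% of the promoters of genes called higher and 16.1% of those called lower, against 25.4% of those of genes tested and 15% of all. The AP-1 site TGANTCA was in 12.3% and 11%, against 5.35% and 7.33%. A motif of ACA and TGT with free bases between them was in 10.7% and 5.08%, against 4.13% and 6.6%. The NF-kB form was thus not alone in being more frequent among genes called higher. Some of the 15 were other forms of the NF-kB site. A stricter form was in 7.38% and 0.847%, against 1.58% and 1.29%. The loosest form was in 11.5% and 7.63%, against 6.68% and 5.36%. A match in these windows is a description of the letters and not of binding.

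Il6, the cytokine that drives the acute phase response, on chromosome 4, was at 0.00, 0.00 and 0.21 FPKM in the controls and at 10.4, 3.38, 9.24 and 3.97 in JZL184 (log2 fold change 6.18, SE 1.12, adjusted p = 0.0372). Il22, which acts on epithelium to induce antimicrobial and repair genes, was at 0.06, 0.12 and 0.23 in the controls and at 18.5, 8.70, 1.22 and 13.6 in JZL184 (log2 fold change 6.04, SE 1.22, adjusted p = 0.0476). Both groups stayed apart for both genes, although the JZL184 libraries differed among themselves by up to 15.2-fold in Il22.

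The shared receptor chain Il6st rose by 2.04, the oncostatin M receptor Osmr by 3.44 and the anti-inflammatory cytokine Il10 by 2.95. Socs3, which STAT3 induces and which shuts the pathway down, was at 12.8, 13.1 and 19.2 FPKM in the controls and at 118, 111, 124 and 173 in JZL184, a log2 fold change of 3.01 (SE 0.37, adjusted p = 0.0149). Of 24 genes of this family and its feedback tested, 6 rose and 0 fell (median log2 fold change 1.40), and 14 were higher and 0 lower with JZL184 libraries 2 and 4 alone.

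In the IL-1 family, 4 of 16 rose and 0 fell (8 and 1 with libraries 2 and 4 alone). These were the alarmin Il1a (log2 fold change 3.53, adjusted p = 0.0266), the cytokine Il18 (2.01), the receptor Il1r1 (3.06) and the signalling brake Irak3 (2.06). Tnf, whose product is a main driver of inflammation, did not pass the test. Its FPKM was 0.92, 0.52 and 0.72 in the controls and 0.91, 5.63, 5.88 and 8.52 in JZL184, with library 1 at the level of the controls (log2 fold change 2.86, SE 0.83, adjusted p = 0.0902 with edgeR and 0.00022 with libraries 2 and 4 alone). Of 23 TNF ligands and receptors tested, 1 rose, the receptor of the cytokine TWEAK, Tnfrsf12a (log2 fold change 2.50, adjusted p = 0.0285), and 5 were higher with libraries 2 and 4 alone.

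Genes that restrain NF-kB were among those that rose. Tnfaip3, which encodes the ubiquitin-editing enzyme A20, went from 1.02 ± 0.32 (SD, n = 2) to 12.3 ± 6.42 FPKM (SD, n = 4), a log2 fold change of 3.56 (adjusted p = 0.0279), and Tnip3, which binds A20, rose by 2.54 (adjusted p = 0.0481). With Ier3 (2.12), 3 of 23 genes of NF-kB subunits and feedback rose and 0 fell, and 9 were higher and 1 lower with libraries 2 and 4 alone.

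**Figure D3:**
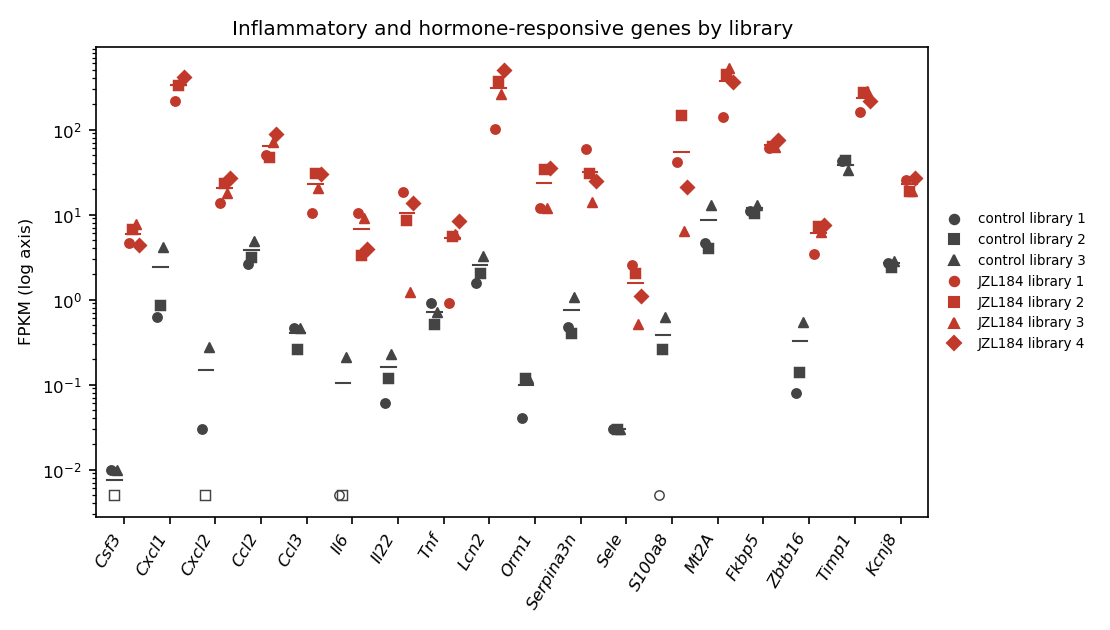
FPKM (log axis) of 18 inflammatory, metal- and hormone-responsive and stromal genes in 3 control libraries (grey) and 4 JZL184 libraries (red). Bars are group means and open symbols at the bottom are values of 0. For each gene except Tnf, where JZL184 library 1 (0.91) lies among the controls, all JZL184 libraries lie above all controls.

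Proteins of the acute phase response, best known from the liver, had the highest median log2 fold change of the 62 gene lists examined, at 3.10. Of 18 tested, 7 rose and 0 fell, and 14 were higher and 0 lower with JZL184 libraries 2 and 4 alone. The summed FPKM of the list did not separate the groups. It was 1336 to 1545 in the controls and 1232, 1983, 862 and 2198 in JZL184 libraries 1 to 4. Lcn2, on chromosome 3, which encodes a lipocalin that withholds iron from bacteria, was at 1.57, 2.07 and 3.25 FPKM in the controls and at 100, 372, 264 and 504 in JZL184 (log2 fold change 6.95, SE 0.87, adjusted p = 0.0155). Orm1, the acid glycoprotein orosomucoid, was at 0.04, 0.12 and 0.12 in the controls and at 11.8, 34.1, 12.1 and 35.3 in JZL184 (log2 fold change 7.82, adjusted p = 0.0144). The lowest JZL184 library was still 30.9 times the highest control for Lcn2.

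The protease inhibitor Serpina3n rose by 5.41, the pattern recognition protein Ptx3 by 5.40, the hemoglobin-binding protein Hp by 4.96, the metalloreductase Steap4 by 3.75 and the protease inhibitor A2m by 2.45. Alb, made by hepatocytes, was at most 0.30 FPKM in any library. Of 9 liver genes tested, 8 had positive and 1 a negative log2 fold change, and 0 were called higher and 1 lower. In the complement list, the activator Cfb (2.84) and the membrane inhibitor Cd59 (1.80) rose and the other 21 genes tested did not pass. With libraries 2 and 4 alone 4 of the list were higher and 1 lower, where 8.98% of all genes were higher and 10.4% lower.

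On vessels, the selectins that slow passing leukocytes rose. Sele was at 0.03 FPKM in each control library and at 2.52, 2.05, 0.51 and 1.11 in JZL184 (log2 fold change 5.68, SE 0.87, adjusted p = 0.0239), and Selp rose by 4.86 (adjusted p = 0.0144). Itgb7, the chain of the integrin by which lymphocytes home to the gut, fell by 2.46 on the log2 scale (adjusted p = 0.026), from 10.74, 10.96 and 12.16 to 3.49, 2.28, 1.42 and 1.40 FPKM. Of 16 leukocyte adhesion genes these were the 3 that passed, and 4 were higher and 3 lower with libraries 2 and 4 alone.

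Of neutrophil genes, 0 of 16 tested passed in either direction with edgeR. At an unadjusted p below 0.05, 6 were higher and 2 lower, where 13.8% of all genes were higher and 12.5% lower. DESeq2 called 5 higher and 0 lower, and with libraries 2 and 4 alone 7 were higher and 0 lower. S100a8 was at 0.00, 0.26 and 0.63 FPKM in the controls and at 41.4, 149, 6.33 and 21.3 in JZL184, apart from every control but spread widely (log2 fold change 7.35, SE 1.65, adjusted p = 0.0594). S100a9, its partner in calprotectin, had a log2 fold change of 6.05 (adjusted p = 0.0624). The summed FPKM of the neutrophil list was 21.97 to 24.96 in the controls and 37.4 to 289 in JZL184. In bulk tissue, a change in the number of cells of a type and in RNA per cell cannot be told apart.

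Macrophage genes passed in 4 of 22 cases, all higher: the beta-glucan receptor Clec7a (log2 fold change 3.58, adjusted p = 0.0167), the hemoglobin scavenger receptor Cd163 (2.99), the mannose receptor Mrc1 (2.34) and osteopontin, Spp1 (1.92). Cd163 had 0.69, 0.60 and 0.77 FPKM in the controls and 2.65, 7.43, 4.57 and 7.66 in JZL184. The list did not move as one: 9 of the 22 had negative log2 fold changes, such as the complement gene C1qa (-1.21, adjusted p = 0.113), and the summed FPKM was 1417 to 1583 in the controls and 594 to 1369 in JZL184. With libraries 2 and 4 alone 7 were higher and 1 lower.

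Of 25 genes that respond to glucocorticoids, 6 rose and 0 fell. Lcn2 and Mt2A were counted here and in other lists. Over the list, the median log2 fold change was 1.92, and 21 had an unadjusted p below 0.05, all of them higher, where 13.8% of all genes were higher at this p. With JZL184 libraries 2 and 4 alone 20 were higher, and DESeq2 also gave 20. Fkbp5, a co-chaperone that dampens the glucocorticoid receptor, was at 11.1, 10.3 and 13.1 FPKM in the controls and at 61.5, 63.5, 62.9 and 76.1 in JZL184 (log2 fold change 2.45, SE 0.31, adjusted p = 0.0156). Zbtb16, a zinc finger repressor, was at 0.08, 0.14 and 0.55 in the controls and at 3.43, 7.29, 6.23 and 7.52 in JZL184 (4.26, adjusted p = 0.0327). The JZL184 libraries lay close together in Fkbp5, those that stood apart in position markers included.

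The lipase inhibitor Angptl4 rose by 2.40 and the transcription factor Cebpd by 2.61. Metallothioneins, which bind zinc and copper, changed with them: Mt2A went from 4.67, 4.06 and 12.9 FPKM to 140, 456, 526 and 360 (log2 fold change 5.45, SE 0.77, adjusted p = 0.0196). Mt1m rose by 5.57 (adjusted p = 0.0194), whereas Mt1 had a log2 fold change of 2.03 and an adjusted p of 0.102. Metallothionein genes are close copies of each other, and the unique alignment of reads may have shifted some between them. The zinc importer Slc39a14 rose by 1.78.

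Single genes rose in several other lists. Bhlhe40, a repressor in the circadian clock, rose by 2.27 (adjusted p = 0.0167), as 1 of 21 clock genes. In the list for hypoxia and glycolysis, the glycolytic regulator Pfkfb3 rose by 2.17 and the vasodilator peptide gene Adm by 2.80, which makes 2 of 29. At an unadjusted p below 0.05, 7 of this list were higher and 5 lower, where 13.8% of all genes were higher and 12.5% lower. Mitochondrial superoxide dismutase Sod2 rose by 2.58 and the glutathione transferases Gsta1 and Gsta3, which also share sequence, by 2.13 and 1.91, as 3 of 44 xenobiotic and antioxidant genes. None of these 3 lists had a member that fell. Of 7 genes induced by cold or temperature, 1 rose: Rbm3, an RNA-binding protein, was at 89.2, 88.5 and 185 FPKM in the controls and at 715, 685, 704 and 796 in JZL184 (log2 fold change 2.39, SE 0.38, adjusted p = 0.0259). Cirbp, also induced by cold, had a log2 fold change of 1.69 and missed the threshold (adjusted p = 0.0617). The 7 genes did not move as one: 3 had positive and 4 negative log2 fold changes, with a median of -0.03. At an unadjusted p below 0.05, 3 were higher and 2 lower.

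Of 35 immediate early and AP-1 genes, 2 rose and 2 fell. Atf3, an immediate early transcription factor, fell by 2.72 on the log2 scale (adjusted p = 0.0156), from 54.4, 53.3 and 24.3 to 6.13, 4.73, 7.32 and 6.68 FPKM, and Fosb fell by 3.09, while Fosl1, another AP-1 subunit, rose by 3.63, as did Ier3, named above. The co-chaperone Fkbp4, as 1 of 29 heat shock and chaperone genes, fell by 1.45 (adjusted p = 0.0421).

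Of 27 metalloproteinases, plasminogen activators and inhibitors tested, 6 rose and 1 fell (median log2 fold change 1.10), and 14 were higher and 3 lower with JZL184 libraries 2 and 4 alone. Among those that rose, Plat, the tissue-type plasminogen activator, changed by 3.15 on the log2 scale (adjusted p = 0.0156). The inhibitor Timp1 rose by 2.57, and the aggrecan-cleaving proteases Adamts4 and Adamts9 by 4.76 and 2.84.

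Stromelysin, Mmp3, had 3 reads in the controls together and 514 in JZL184, a ratio of 131 with an exact 95% interval of 44.7 to 639 for counting error (adjusted p = 0.0476). Mmp28 fell by 2.92. Of 37 collagen and matrix genes, the provisional matrix genes Fn1 (2.05), Tnc (1.55) and Thbs1 (2.97) rose, while Col1a1, the main chain of type I collagen, fell by 2.49 (adjusted p = 0.0462), from 19.9 ± 1.90 (SD, n = 2) to 3.72 ± 2.49 FPKM (SD, n = 4), and Fbln1 fell by 2.22. With libraries 2 and 4 alone 6 of this list were higher and 9 lower.

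Kcnj8, a potassium channel of pericytes, was at 2.70, 2.40 and 2.87 FPKM in the controls and at 25.9, 19.0, 19.1 and 26.9 in JZL184 (log2 fold change 3.03, SE 0.32, adjusted p = 0.0112). With Steap4, 2 of 24 pericyte and endothelial genes rose and 0 fell (8 and 2 with libraries 2 and 4 alone). Of 21 smooth muscle genes, Smtn fell by 1.84 (adjusted p = 0.0461) and 0 rose, and with JZL184 libraries 2 and 4 alone 14 were lower. The summed FPKM of this list was 4954 to 5428 in the controls and 1148 to 4286 in JZL184.

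Of the 15 largest rises among well-covered genes, 2 lay outside these groups. Sh2d5, which encodes an adaptor protein, went from 0.00, 0.02 and 0.02 FPKM to 1.47, 0.95, 0.58 and 1.49 (log2 fold change 6.56, adjusted p = 0.0112). Medag, known from adipocyte differentiation, went from 0.07, 0.15 and 0.17 to 3.44, 6.65, 16.6 and 10.7 (log2 fold change 6.02, adjusted p = 0.0156). Adipoq, a marker of fat cells, was at 10.5 to 15.2 FPKM in the controls and at 6.46 to 16.1 in JZL184. The summed FPKM of 15 adipose genes was 389 to 557 in the controls and 598 to 928 in JZL184.

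**Figure D4:**
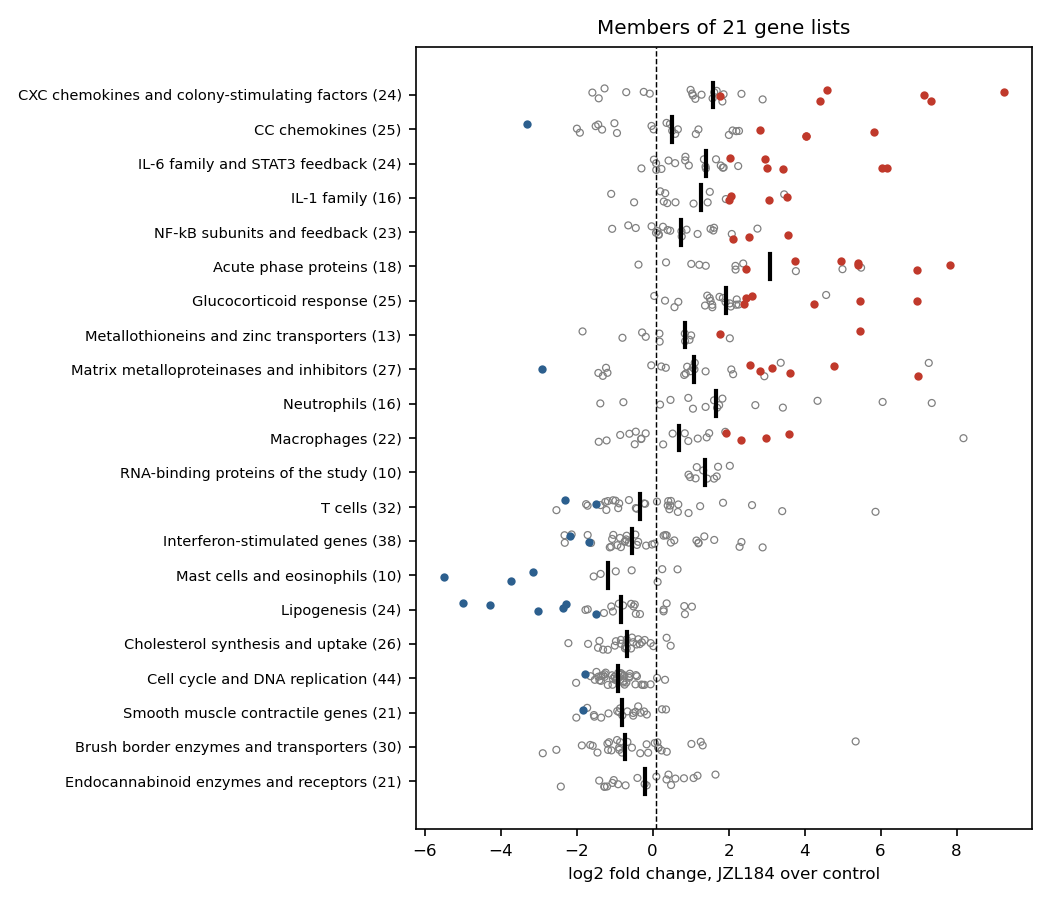
Log2 fold change of JZL184 over control for the tested members of 21 gene lists (their number in parentheses), with members called higher in red, called lower in blue and the others open. Black bars are the median of each list and the dashed line is the median of all genes (0.08). The acute phase proteins (3.10) and glucocorticoid response (1.92) have the highest medians shown, and mast cells and eosinophils (-1.17) the lowest.

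Several genes of fatty acid synthesis fell. Scd, on chromosome 1, the desaturase that makes monounsaturated fatty acids, was at 7.66, 7.36 and 4.64 FPKM in the controls and at 0.25, 0.15, 0.22 and 0.17 in JZL184. The log2 fold change was -5.00 (SE 0.34, adjusted p = 0.00224), and no JZL184 library lay above 0.25. Scd2, its close copy, fell by 2.37 (adjusted p = 0.0465).

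Fatty acid synthase, Fasn, went from 7.27 ± 2.06 (SD, n = 2) to 1.58 ± 0.65 FPKM (SD, n = 4) with no overlap (log2 fold change -2.28, SE 0.36, adjusted p = 0.0261). Thrsp, a regulator of lipogenesis, went from 233, 222 and 153 to 10.5, 17.7, 43.1 and 27.2 (log2 fold change -3.01, adjusted p = 0.0279). The lipase-like gene Pnpla3 fell by 4.27 and the elongase Elovl1 by 1.49. Thus 6 of 24 lipogenesis genes fell and 0 rose, with a median log2 fold change of -0.83, and with JZL184 libraries 2 and 4 alone 11 were lower and 1 higher. Of 26 genes for cholesterol synthesis and uptake 0 passed, with a median of -0.68. At an unadjusted p below 0.05, 10 were lower and 0 higher, where 12.5% of all genes were lower. DESeq2 called 5 of the 26 lower. With libraries 2 and 4 alone 9 were lower, where 10.4% of all genes were.

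Several mast cell genes fell. Mcpt2, the chymase of mucosal mast cells, on chromosome 15, was at 158, 168 and 179 FPKM in the controls and at 2.07, 20.2, 17.8 and 11.2 in JZL184 (log2 fold change -3.73, SE 0.70, adjusted p = 0.042). The carboxypeptidase Cpa3 went from 2.39, 2.00 and 2.55 to 0.06, 0.36, 0.34 and 0.31 (log2 fold change -3.15, adjusted p = 0.0466). For Fcer1a, the chain of the IgE receptor that binds IgE, 46 reads were counted in the controls and 1 in JZL184, a ratio of 0.0167 with an exact 95% interval of 0.00041 to 0.0976 for counting error (adjusted p = 0.0286). With these, 3 of 10 mast cell and eosinophil genes fell and 0 rose, and the counts were equal with libraries 2 and 4 alone. Of the other members 4 had negative and 3 positive log2 fold changes, and none of them passed.

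Several genes of cytotoxic lymphocytes fell as well. Gzmb, the protease granzyme B, was at 31.8, 32.3 and 44.5 FPKM in the controls and at 7.01, 7.24, 10.2 and 7.41 in JZL184 (log2 fold change -2.30, SE 0.26, adjusted p = 0.0135). Its copy Gzmbl1 fell by 2.67, with the same caution on shared reads, the protease gene Ctsw of cytotoxic cells by 2.68 and the interleukin receptor chain Il2rb by 1.49. Of 32 T cell genes 2 fell, Gzmb and Il2rb, and 0 rose, and with JZL184 libraries 2 and 4 alone 11 were lower and 1 higher.

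Jchain, which links IgA into dimers, went from 90.8, 90.8 and 118 FPKM to 18.2, 32.5, 16.7 and 27.3 (log2 fold change -2.14, SE 0.37, adjusted p = 0.035). Of 27 B and plasma cell genes it was the one that fell, and Cxcl13 the one that rose (5 lower and 2 higher with libraries 2 and 4 alone). Of 38 interferon-stimulated genes 2 fell and 0 rose, with a median log2 fold change of -0.54: the RNA sensor Oas1a (-2.17, adjusted p = 0.0351) and the immunoproteasome subunit Psmb9 (-1.68, adjusted p = 0.0265). With libraries 2 and 4 alone 14 of them were lower and 0 higher. Outside that list, Ifit1bl fell by 3.43.

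**Figure D5:**
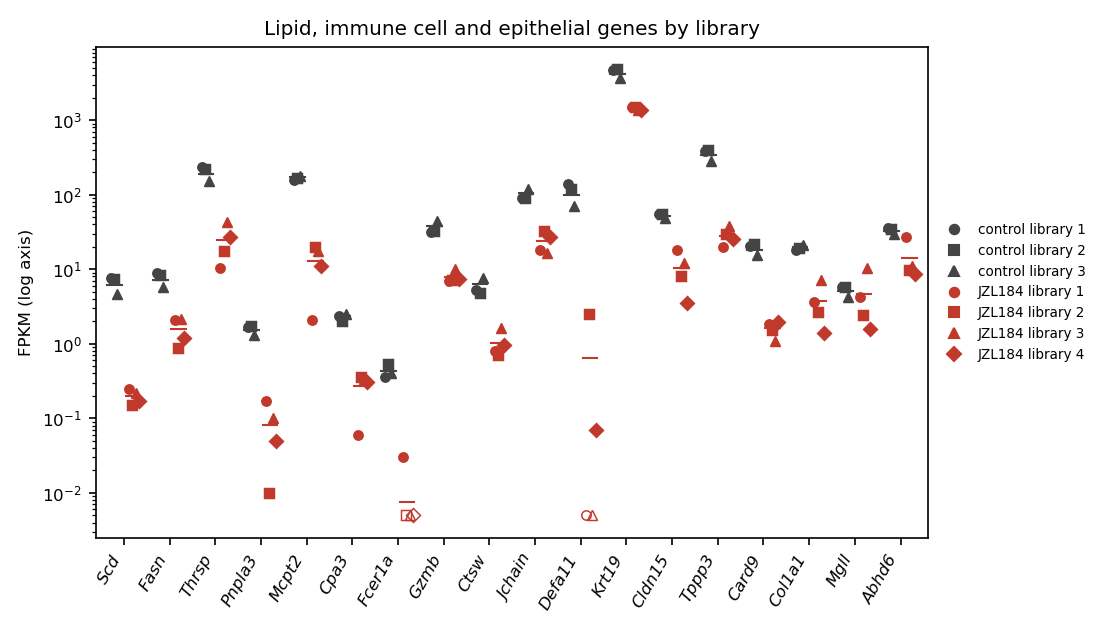
FPKM (log axis) of 18 lipid, immune cell, epithelial and endocannabinoid genes in 3 control libraries (grey) and 4 JZL184 libraries (red). Bars are group means and open symbols at the bottom are values of 0. All JZL184 libraries lie below all controls for each gene except Mgll, whose JZL184 libraries reach from 1.56 to 10.5 around the controls at 4.26 to 5.83.

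In the epithelium, Defa11, a Paneth cell defensin, had an FPKM of 139, 120 and 69.6 in the controls and of 0.00, 2.55, 0.00 and 0.07 in JZL184 (log2 fold change -7.22, SE 1.39, adjusted p = 0.044 with edgeR). It was the one gene named here as fallen or risen that DESeq2 did not call (adjusted p = 0.0788). Defensin genes are close copies, and Defa24, another of them, was at 3165 to 5433 FPKM in JZL184 libraries 1, 2 and 4. In the controls Defa24 was at 8404, 8765 and 9105, above all JZL184 libraries, and it did not pass (log2 fold change -1.49, adjusted p = 0.414 with edgeR). Of 17 Paneth cell and antimicrobial genes tested, 15 had negative and 2 positive log2 fold changes, and 1 fell and 0 rose. The keratin Krt19 went from 4666, 4815 and 3682 to 1503, 1501, 1350 and 1387 (log2 fold change -1.59, SE 0.30, adjusted p = 0.0418). The JZL184 libraries were close together in Krt19, and 1 of 16 epithelial markers fell and 0 rose. Krt8 (-1.46), Krt20 (-1.60) and Vil1 (-1.58), which bundles actin in microvilli, missed the threshold with edgeR (adjusted p = 0.0576, 0.0902 and 0.094) although the groups did not overlap. DESeq2 called 4 of the 16 lower, where it called 10.8% of all genes in either direction. With libraries 2 and 4 alone 5 were lower and 1 higher, where 10.4% of all genes were lower and 8.98% higher.

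Of 39 claudins and tight junction genes, Cldn15, which forms the cation pores of the small intestine, was the one that passed. It had 55.8, 55.0 and 48.6 FPKM in the controls and 17.9, 8.02, 12.00 and 3.51 in JZL184 (log2 fold change -2.40, SE 0.49, adjusted p = 0.0489). The median of the list was 0.01. With libraries 2 and 4 alone 2 were higher and 4 lower, near or below the shares of all genes in that fit (8.98% higher and 10.4% lower).

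Among 35 genes for ion and water transport, the potassium channel Kcnn4 fell by 1.76 (adjusted p = 0.0357) and 0 rose, but most of the list lay on the other side. The median log2 fold change was 0.56, and 13 were higher and 4 lower at an unadjusted p below 0.05. Of all genes, 13.8% were higher and 12.5% lower at this p. DESeq2 called 9 higher and 2 lower, where it called 10.8% of all genes in either direction. With libraries 2 and 4 alone 13 were higher and 5 lower, where 8.98% of all genes were higher and 10.4% lower. The sodium-proton exchanger Slc9a3 was at 0.10, 0.15 and 0.47 FPKM in the controls and at 7.98, 1.62, 18.7 and 5.47 in JZL184 (log2 fold change 4.76, SE 1.02, adjusted p = 0.0533 with edgeR). For Scnn1g, a subunit of the epithelial sodium channel, the log2 fold change was 5.42 (adjusted p = 0.0631), and for the kinase gene Sgk1, which acts on that channel, 2.26 (0.0715). In all 3 genes the JZL184 libraries lay above the controls.

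Of 44 cell cycle genes, Cdc20, an activator of the anaphase-promoting complex, fell by 1.77 (adjusted p = 0.0283) and 0 rose. The median of this list was -0.92, and 24 members were lower and 0 higher at an unadjusted p below 0.05, where 12.5% of all genes were lower at this p. With JZL184 libraries 2 and 4 alone 25 were lower and with DESeq2 15. The apoptosis effector Bak1 fell by 1.44.

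Other large falls among well-covered genes lay outside the groups above. Tppp3, which binds tubulin, went from 389, 398 and 287 FPKM to 19.9, 29.3, 38.4 and 25.6 (log2 fold change -3.63, SE 0.34, adjusted p = 0.0085). Card9, the adaptor that relays signals from fungal receptors such as Clec7a, went from 20.4, 21.8 and 15.6 to 1.83, 1.55, 1.09 and 1.98 (log2 fold change -3.54, adjusted p = 0.0085). The receptor gene thus rose and the adaptor gene fell.

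The retinoid-binding protein genes Crabp2 and Rbp4 fell by 3.46 and 1.91 on the log2 scale. The plasminogen-binding lectin Clec3b fell by 3.48, the amino acid transporter gene Slc7a15 by 4.15, the junction protein Evpl by 3.17, the calpain Capn9 by 3.38, the axonemal gene Enkur by 3.15 and the proline-degrading enzyme Aldh4a1 by 3.12. Both Myh6 and Myh2, myosin genes of striated muscle, fell from low levels: Myh6 from 1.72, 1.93 and 0.80 FPKM to 0.08, 0.08, 0.09 and 0.01 (log2 fold change -4.38, adjusted p = 0.0279) and Myh2 by 4.03. The creatine kinase Ckm, also of striated muscle, was at 4.67 to 5.30 in the controls and at 0.25 to 1.72 in JZL184 (log2 fold change -2.96, adjusted p = 0.0631). Of 13 skeletal muscle genes Myh2 was the one that passed. At an unadjusted p below 0.05, 6 were lower and 3 higher, among the latter Tnnc2, a troponin gene (2.51, adjusted p = 0.0828). Of all genes, 12.5% were lower and 13.8% higher at this p.

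Mgll, on chromosome 4, the target of JZL184, did not pass the test at the RNA level. Its FPKM was 5.83, 5.82 and 4.26 in the controls and 4.19, 2.42, 10.5 and 1.56 in JZL184 (log2 fold change -0.21, SE 0.63, adjusted p = 0.855). It is the activity of the enzyme that the drug blocks, so the RNA level checks nothing about the treatment. With JZL184 libraries 2 and 4 alone the log2 fold change was -1.28 (adjusted p = 0.027), and library 3, which stood apart in position markers, held the highest value.

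Of 21 endocannabinoid genes tested 0 passed with edgeR. At an unadjusted p below 0.05 there were 6, a share near the 26.3% of all genes in both directions. Of these 5 were lower and 1 higher, where 12.5% of all genes were lower and 13.8% higher. DESeq2 called 3 lower and 1 higher. With JZL184 libraries 2 and 4 alone 8 of 20 tested were called lower and 1 higher, where 10.4% of all genes were called lower and 8.98% higher. Abhd6, which encodes another hydrolase of 2-arachidonoylglycerol, was at 35.5, 34.4 and 30.2 FPKM in the controls and at 27.3, 9.79, 11.2 and 8.73 in JZL184 (log2 fold change -1.26, SE 0.43, adjusted p = 0.119). Abhd12, a further hydrolase of this lipid, had a log2 fold change of -1.27 (adjusted p = 0.0867), the synthase Dagla of -1.06 (0.149) and Daglb of -0.71 (0.36). For Faah, which degrades anandamide, it was -0.91 (adjusted p = 0.346), and for the lysolipid receptor Gpr55 -2.42 (0.0871). The cannabinoid receptor genes were barely detected, Cnr1 at 0.00 to 0.06 FPKM and Cnr2 at 0.19 to 0.61 in all libraries.

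Gene groups that the study had singled out on these libraries were looked at in the same way, and are not independent evidence of direction. Of its 10 RNA-binding protein genes 0 passed with edgeR, although all 10 had positive log2 fold changes, from 0.94 (Rrp15) to 2.03 (Mt1), with an unadjusted p below 0.05. DESeq2 called 7 of them and the fit with JZL184 libraries 2 and 4 alone all 10. Hnrnpdl, a splicing regulator, was at 63.9, 66.0 and 88.1 FPKM in the controls and at 129, 245, 317 and 260 in JZL184 (log2 fold change 1.62, SE 0.43, adjusted p = 0.0756).

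The study described its 15 focal adhesion and PI3K-Akt genes as raised by SAP over control and lower with JZL184. That pattern involves the SAP libraries, which were not analysed here, so the present comparison does not test it. Of these 15 genes, Tnc rose and 0 fell over control. The log2 fold changes of the others reached from -0.74 (Phlpp2) to 1.30 (Itga2, an integrin chain, adjusted p = 0.119). The kinase gene Rock1 was at 1.58, 1.56 and 3.99 FPKM in the controls and at 9.24, 2.28, 5.57 and 6.16 in JZL184 (log2 fold change 1.02, adjusted p = 0.253), with library 2 among the controls. Rock2 (0.72), Xiap (0.75), Kitlg (0.36) and Pak2 (0.25) did not pass. Of its 14 alternatively spliced genes, Kcnn4 fell and 0 rose at the gene level, and splicing itself was not analysed here. With libraries 2 and 4 alone 2 of the 15 were higher and 0 lower, and 1 of the 14 was higher and 3 lower.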

How the data were processed

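Total RNA of ileal tissue was sequenced on an Illumina instrument as paired reads of stranded mRNA libraries. The authors aligned trimmed reads to the rat assembly mRatBN7.2 with HISAT2, and deposited whole-number counts of uniquely aligned reads per gene, without normalization, together with FPKM, which scales them by gene length and library size and is given to 2 decimals. Not given in the sources used here are the tool that counted reads and its annotation.

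Groups followed the labels. Reads of control libraries 1 and 2 were summed. Genes were compared by edgeR 4.0.16 (R 4.3.3, quasi-likelihood test, TMM, filterByExpr with a minimum count of 10). Calls needed more than a 2-fold change in either direction with p below 0.05 after Benjamini-Hochberg adjustment. The same comparison was also made with 3 separate controls, DESeq2 1.42.0, voom of limma 3.58.1 with quality weights, other size factors, other count filters, adjusted p alone, gene length offsets, replicate blocks, and without each library in turn. JZL184 libraries 2 and 4 alone were added after the data were seen. The scripts were tested on simulated data. Replicate numbers did not pair the libraries: deviations of same-numbered libraries correlated between -0.10 and 0.13.

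The comparison and its 62 gene lists were chosen with earlier results of these data known. Genes were named if among the 15 largest changes per direction (called, mean count of at least 100, no overlap of groups, not a provisional symbol), if called in a list or among the 4 members of smallest p, or if they were Mgll, Cnr1, Cnr2, Il6, Tnf or genes of the study's lists. Markers of tissue and gut position and other genes outside this rule were chosen after their values were seen, and 1 gene that met the rule is not reported here. Promoters were matched by symbol to RefSeq sequences of assembly GRCr8. Depth was 26341299 to 30887028 reads per library, and intervals on ratios cover counting error only.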

Additional observations from a re-analysis of the deposited data

Results flagged for a closer look

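In the 4 JZL184 libraries, the highest or lowest FPKM of 20 of 156 named genes lay farther from its neighbour than Dixon's 95% critical value allows for 4 samples, where chance flags about 1 in 20 groups. This share is set in part by how the genes were chosen, since some markers were named because a library stood off in them. Without 21 markers of tissue and position and 3 genes with under 10 reads in every JZL184 library, 11 of 132 remained.

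Position markers were among them. In JZL184 library 1 Lct was at 44.5 FPKM (the others 0.06 to 3.51) and Gata4 at 7.73 (0 to 0.34), and in library 3 Car1 was at 478 (0.17 to 24.5) and Hoxd10 at 4.49 (0.04 to 0.07). JZL184 library 1 also stood off in the B cell gene Ms4a1 at 18.4 (2.35 to 4.51), in Adm at 11.3 (22.6 to 24.6), in Cpa3 at 0.06 (0.31 to 0.36), in Daglb at 3.07 (0.93 to 1.21) and in Abhd6 at 27.3 (8.73 to 11.2). In library 3 Ckm was at 1.72 (0.25 to 0.35), Gzmb at 10.2 (7.01 to 7.41) and Crabp2 at 3.37 (1.90 to 1.95). Library 2 stood off in Defa11 at 2.55 (0 to 0.07), in Clec3b at 4.10 (2.12 to 2.21) and in Cnr1 at 0 (0.05 to 0.06). In library 4 Fkbp5 was at 76.1 (61.5 to 63.5) and Myh6 at 0.01 (0.08 to 0.09). The values of Fcer1a (0.03 in library 1, 0 in the others), Ccr10 (0.05 in library 1, 0.04 in the others) and Myh2 (0 in library 4, 0.01 in the others) rest on at most 3 reads a library and on FPKM given to 2 decimals, and show no difference between libraries.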

How the results depend on the processing

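The number of called genes was the least stable result. Against 343 genes (162 higher and 181 lower), 3 separate controls gave 2800 (1556 and 1244), DESeq2 1899 (1021 and 878), DESeq2 with separate controls 3482 (1926 and 1556), limma-voom with sample quality weights 2906 (1350 and 1556) and no filter on low counts 929 (442 and 487). JZL184 libraries 2 and 4 alone gave 2967 (1375 and 1592), or 3746 with separate controls (1841 and 1905). Leaving out single libraries gave between 1 and 1867 genes, between 0 and 855 higher and between 1 and 1012 lower, and leaving out control libraries 1 and 2 together gave 0. The replicate block with separate controls gave 1488 genes (774 higher and 714 lower), and since the replicate numbers share nothing but a number, this is no paired result. DESeq2's size factors (342), at least 10 reads in every sample (328), no fold threshold (343) and gene length trends removed (344) stayed within 1.5 times. The cause of these differences was not tested.

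Directions were steadier, but for called genes this was largely fixed by the selection. In all 343 of them every JZL184 sample lay beyond every control, so refits of these libraries could hardly turn a sign. Of the 109 called genes named here, 0 changed sign under any of the 20 alternatives that tested them. Gene length trends removed ended the call of 8, DESeq2 of 1 (Defa11), and leaving out JZL184 library 2 of 94, JZL184 library 4 of 68, control library 3 of 108 and control libraries 1 and 2 of all 109. Among genes that were not called, Slc10a2 (-0.77) became 0.11 with JZL184 libraries 2 and 4 alone and 0.23 with separate controls as well. Gata4 (3.83) lay between -0.0062 and 4.25 when libraries were left out in turn, Ptprc (0.87) between -0.0040 and 1.78, Mgll (-0.21) between -0.92 and 0.076, Pak2 (0.25) between -0.12 and 0.60 and Kitlg (0.36) between -0.11 and 0.80, where JZL184 library 1 turned the sign of Gata4, Ptprc, Pak2 and Kitlg, and JZL184 library 4 that of Mgll. Without control libraries 1 and 2, Mgll became 0.093 and Pak2 -0.043. With JZL184 libraries 2 and 4 alone, Ptprc became -0.023, Cnr2 (0.37) -0.042, Kitlg -0.12 and Pak2 -0.16 (-0.037 with separate controls). Cnr2 became -0.021 with limma-voom and Pak2 -0.015 with the replicate block.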

Other observations

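In some gene groups most members lay on one side although few passed a test. The shares at an unadjusted p below 0.05 were all below the 26.3% of all genes, which counts both directions. By direction, 13.8% of all genes were higher and 12.5% lower at this p. In the brush border list the share was above that of all genes in the same direction, and in the others near or below it. Of 70 cytosolic ribosomal protein genes 0 were called with edgeR and 1 with DESeq2, and 4 were higher and 0 lower at an unadjusted p below 0.05. In 27 the JZL184 libraries lay above both controls and in 0 below, where 18.9% of all genes lay above and 19.3% below. The median log2 fold change of the list was 0.48. Of 56 nuclear genes for oxidative phosphorylation 0 were called with edgeR and 1 with DESeq2, and 7 were lower and 0 higher at an unadjusted p below 0.05. In this list 26 lay below and 0 above, and the median was -0.40. Of 30 brush border genes 0 were called with edgeR and 5 with DESeq2, and 7 were lower and 0 higher at an unadjusted p below 0.05. Here 12 lay below and 0 above, and the median was -0.73. Of 24 genes of enteric neurons and glia 0 were called with edgeR and 2 with DESeq2, and 4 were higher and 0 lower at an unadjusted p below 0.05. Among them 7 lay above and 0 below, with a median of 0.55 for the list. Its summed FPKM was 116 to 122 in the controls and 170 to 200 in JZL184. Of 15 adipose genes 0 were called with edgeR and 1 with DESeq2, and 2 were higher and 0 lower at an unadjusted p below 0.05. In this list 9 had positive and 6 negative log2 fold changes, and the median was 0.06, so that its members lay on neither side. The summed FPKM of the list did separate the groups, at 389 to 557 in the controls and 598 to 928 in JZL184.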
